A study of Mus musculus with 13 samples.

Results

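The genes described here carry a symbol that starts with Usp and a digit, and they make up the ubiquitin-specific protease (USP) family as the mouse expression GeneChip used represents it. Members were chosen by name among the probe sets with a single gene symbol, and each gene was read on its brightest probe set over the 6 EPLM arrays. This gave 50 genes on 127 probe sets, out of 18193 genes and 45037 probe sets in all. A further gene with a matching symbol lies outside the rule and is not analysed here. The expression level decided only which probe set stands for a gene, but the family was proposed with the comparison of BCS and WT known and Usp2 in view. The changes below are therefore a description, and the adjusted p-values serve to say which probe sets passed the same threshold as all others. The name rule also took in Usp6nl, which encodes a GTPase-activating protein and not a protease, and Usp46os2, by its name a transcript from the strand opposite to Usp46.

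BCS mice carry a transgene with a human OBF1 cDNA, tagged with HA, under the murine Eμ enhancer and a VH promoter, and express this coactivator of Oct1 and Oct2 in the B lineage. EPLMs, early progenitors with lymphoid and myeloid potential, were sorted from the bone marrow of 3 BCS mice and 3 WT littermates, all 7 weeks old and on a B6CF1 x C57BL/6 background, with a gate that included B220, CD117 (Kit) and CD93 as positive markers, and each mouse gave 1 array. The promoter and enhancer used can also be active in T cells, and which of the transgenic lines gave the arrays was not given in the sources used here. The arrays of large preB cells (7 of the 13) were not used, because their values do not follow the probe set names: mean levels in both cell types correlated with r = 0.0944 over 45037 probe sets, against r = 0.978 over 64 control features, a correlation across features that are not independent.

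Ubiquitin is attached to proteins by ligases and taken off again by deubiquitinases, of which the USP enzymes, cysteine proteases with a shared catalytic fold, form the largest group in mammals. By removing ubiquitin they can spare a protein from the proteasome, or change where it goes and what it binds. Known targets include p53 and its ligase MDM2, cyclins, histones H2A and H2B, and receptors on endosomes. Their levels are not usual markers of a stage of B cell development, although Usp1, the partner of WDR48, is known from human cells to stabilize Id proteins, the inhibitors of E proteins.

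In BCS EPLMs, 3 of the 50 genes (6.0%) were higher than in WT at an adjusted p under 0.05 from limma, namely Usp2, Usp40 and Usp15, and none was lower. Among all genes, each by its brightest probe set, 7.83% passed in either direction, 3.15% higher and 4.68% lower, so the share of the family was close to that of the background. Without adjustment, 12 members had a p under 0.05 in the upward and 4 in the downward direction with limma, where 2051 and 2116 of all 18193 genes did. With the methods' t-test 9 and 1 members did. For that test the background was counted only over all 45037 probe sets, of which 3661 and 3415 did. These include dimmer probe sets of each gene, so the 2 counts are not alike. Of the 50 genes, 27 had a log2 change above 0 and 23 one below, with a median of 0.05 beside 0.01 over all genes. For 44 of the 50 (88.0%) the 95% interval of the change lay within 2-fold either way, as it did for 88.5% of all genes. The exceptions were Usp2, Usp40, Usp54, Usp53, Usp11 and Usp20.

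**Figure D1:**
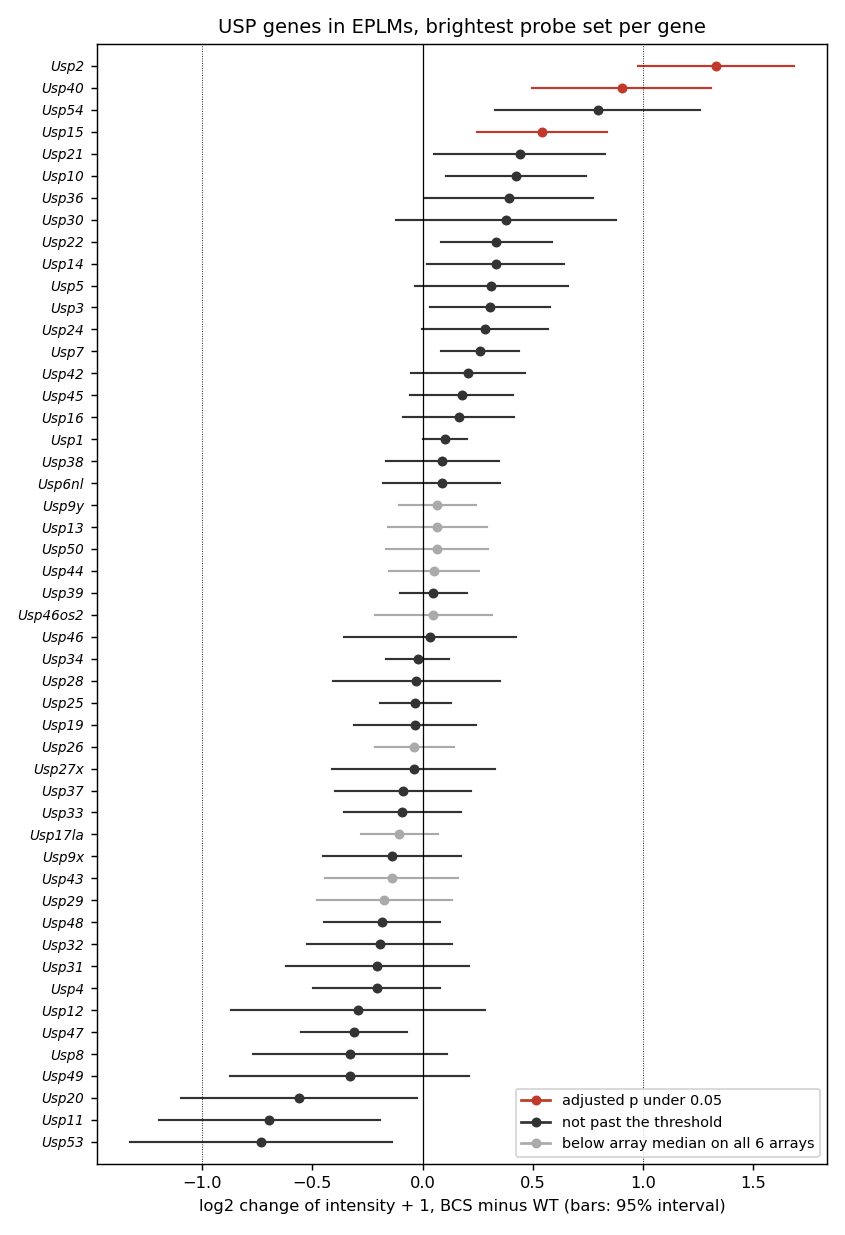
Log2 change of the intensity plus 1 between 3 BCS and 3 WT mice (x axis) for each of the 50 genes (y axis), on the brightest probe set. Points are estimates from limma and bars their 95% intervals, dotted lines mark a 2-fold change, and Usp2, Usp40 and Usp15 are the only genes past the threshold, at 1.33, 0.90 and 0.54.

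All 3 genes that passed were higher in every BCS mouse. Since OBF1 acts through octamer sites, the stretches around their RefSeq starts (GRCm38.p6, from 250 bases before to 50 bases after) are printed here. Capitals mark the GC box, GGGCGG or CCGCCC, and the TATA motif, TATAAA or TTTATA. No octamer in capitals appears because none was found. The window of Usp2 lies at chr9:44084670-44084969 on the plus strand, that of Usp15 at chr10:123196970-123197269 on the minus strand and that of Usp40 at chr1:88008502-88008801 on the minus strand.
Usp2: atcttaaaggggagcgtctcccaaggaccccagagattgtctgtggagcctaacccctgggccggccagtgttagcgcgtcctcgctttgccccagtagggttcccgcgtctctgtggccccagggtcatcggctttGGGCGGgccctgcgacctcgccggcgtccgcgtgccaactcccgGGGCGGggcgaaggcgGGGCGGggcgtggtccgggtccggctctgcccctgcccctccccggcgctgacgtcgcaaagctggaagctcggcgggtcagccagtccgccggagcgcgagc
Usp15: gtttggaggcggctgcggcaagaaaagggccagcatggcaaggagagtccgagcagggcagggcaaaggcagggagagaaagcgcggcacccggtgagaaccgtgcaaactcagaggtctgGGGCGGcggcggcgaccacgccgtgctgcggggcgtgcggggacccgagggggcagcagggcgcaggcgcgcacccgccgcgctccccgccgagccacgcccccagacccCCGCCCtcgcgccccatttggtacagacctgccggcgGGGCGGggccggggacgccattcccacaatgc
Usp40: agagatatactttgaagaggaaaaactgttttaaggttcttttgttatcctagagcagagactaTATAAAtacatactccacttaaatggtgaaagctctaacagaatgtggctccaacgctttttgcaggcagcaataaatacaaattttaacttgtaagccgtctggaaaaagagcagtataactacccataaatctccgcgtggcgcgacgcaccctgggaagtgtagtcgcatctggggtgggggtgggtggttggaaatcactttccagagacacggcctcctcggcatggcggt
The windows of Usp2 and Usp15 are rich in G and C (71.7% and 73.7%) with 3 GC boxes each, whereas that of Usp40 has 45.0% G and C, no GC box and a TATAAA that lies 186 bases before the start. No capital stretch overlaps another motif that was searched. The octamer ATGCAAAT, read on both strands, was found in none of the 39 windows of the 38 members matched in RefSeq, and in 1.74% of all 32851 windows. This says only that these letters are not in these windows, and binding was not measured. With a share this low, 39 windows could not show a lack of octamers. Octamer-like variants, which the paper describes for Id2 and Id3, and sites further away were not searched. Usp2 is known to be transcribed from more than 1 start, and a single window was at hand.

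Over the family, a GC box was found in 26 of the 39 windows (66.7%), beside 46.2% of the windows of protein-coding genes and 35.7% of all windows. The median content of G and C was 65.0% in the family, 56.3% in protein-coding genes and 52.7% overall. The E-box CACGTG, a site of the clock proteins, was present in 5 family windows (12.8%, beside 7.15% of all), those of Usp4, Usp6nl, Usp16, Usp31 and Usp32. The E-box CAGGTG or CACCTG, which E proteins bind, was present in 4 (10.3%, beside 20.2% of all), those of Usp11, Usp16, Usp32 and Usp49. None of these genes was among the 3 that passed.

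Usp2 encodes a protease known from human cells to stabilize cyclin D1 and MDM2, and its transcript follows the circadian clock in many mouse tissues. Its brightest probe set had intensities of 414, 385 and 397 in the WT mice and of 1184, 996 and 861 in the BCS mice. Every BCS mouse thus lay far above every WT mouse, and the WT mice were close to each other. The WT mean was 399 ± 14.1 (SD, n = 3) and the BCS mean 1013 ± 162 (SD, n = 3), with a fitted difference of 2.52-fold, or 1.33 on the log2 scale (95% interval 0.98 to 1.69). The other probe set of Usp2 was dimmer and moved alike, from 153, 174 and 186 to 366, 311 and 361, a log2 change of 1.02 ± 0.17 (SE). Both probe sets passed whichever of the 6 arrays was left out, with log2 changes of 1.21 to 1.44 and of 0.94 to 1.09.

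Usp40, a USP enzyme with few known targets, had intensities of 168, 164 and 138 in WT and of 332, 254 and 297 in BCS mice. The groups did not overlap, and the log2 change was 0.90 ± 0.18 (SE, limma adjusted p = 0.0207). Its other 3 probe sets were dimmer and also had log2 changes above 0, of 0.35, 0.53 and 0.19, none of which passed. The last of them lay below the array median of 20 on all 6 arrays. The call of the brightest probe set was lost without WT replicate 2, WT replicate 3, BCS replicate 1 or BCS replicate 3 (limma adjusted p up to 0.0860), and over all 6 such fits its log2 change was 0.81 to 1.01.

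Usp15 encodes a protease that acts on receptor-regulated SMAD proteins and, in T cells, on MDM2. It had intensities of 930, 845 and 756 in WT and of 1275, 1230 and 1166 in BCS mice. All BCS mice lay above all WT mice, with a log2 change of 0.54 ± 0.13 (SE, limma adjusted p = 0.0474). Its other 5 probe sets had log2 changes of 0.16 to 0.31, all upward, and none passed. The Usp15 call was lost whichever array was left out (adjusted p from 0.0605 to 0.166 from limma), with log2 changes of 0.46 to 0.61 in these fits.

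**Figure D2:**
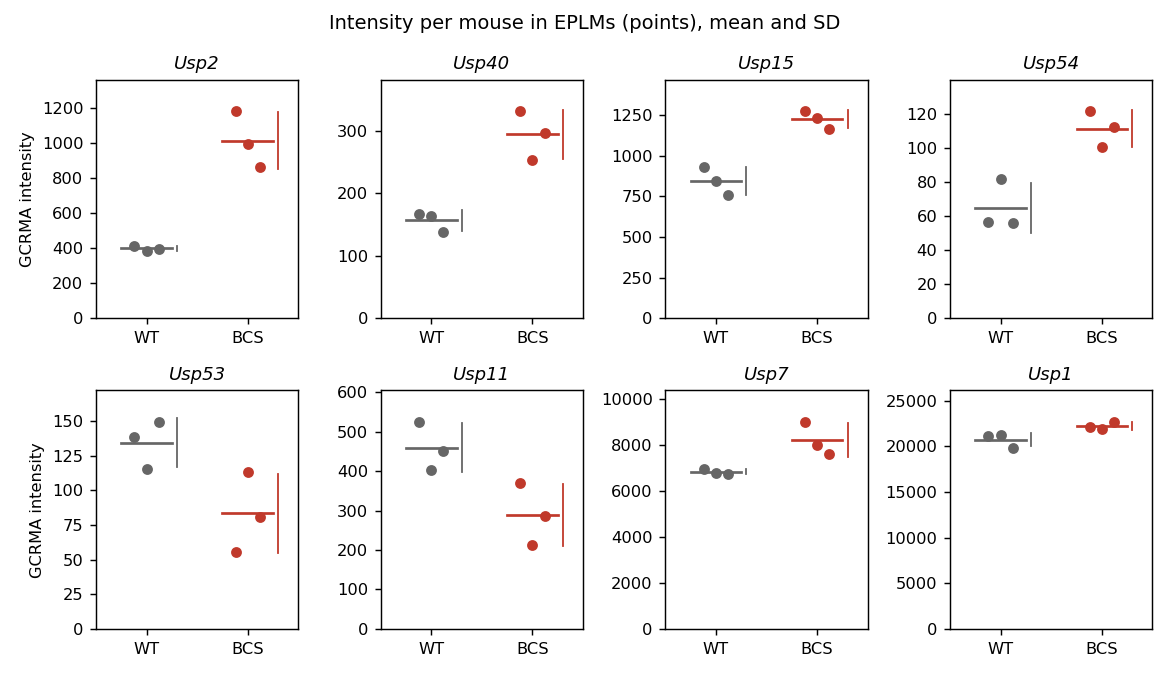
GCRMA intensity (y axis, linear from 0) of 8 USP genes on the brightest probe set in WT and BCS EPLMs. Points are single mice, horizontal bars means and vertical bars 1 SD on each side (n = 3 per genotype), and the genotypes do not overlap in any of the 8 panels, with Usp2 at 385 to 414 in WT and 861 to 1184 in BCS mice.

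The genotypes did not overlap for 16 of the 50 genes (32.0%), with BCS above WT in 13 and below in 3. Over all genes the genotypes did not overlap in 28.7%, with BCS above in 14.4% and below in 14.2%. The 13 were Usp1, Usp2, Usp3, Usp7, Usp14, Usp15, Usp16, Usp21, Usp22, Usp24, Usp36, Usp40 and Usp54, and the 3 were Usp11, Usp47 and Usp53. A mean intensity over 100 was reached by 36 members, of which 3 (8.33%) passed, while 13.8% of all 8275 genes of this brightness did, 5.50% higher and 8.28% lower. In this brighter range the genotypes did not overlap for 15 members (41.7%) and 42.0% of all genes.

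Usp54, a relative of Usp53, came closest to the threshold among the others, and it is singled out here after its values were seen. It had intensities of 56.4, 81.7 and 55.6 in WT and of 122, 100.2 and 112 in BCS mice on its only probe set. The groups were apart, with a log2 change of 0.79 ± 0.21 (SE, limma adjusted p = 0.0628). It passed without dim probe sets, without an intensity trend and without WT replicate 2 (limma adjusted p = 0.0472, 0.0461 and 0.0354), and with each gene read as the mean of its probe sets (limma adjusted p = 0.0303). Among the fits that leave out an array, it passed only in that without WT replicate 2. It did not pass with robust variances, array weights, other offsets, other normalizations, the replicate number as a block or the methods' t-test.

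Usp53, which encodes a protein of cell junctions, pointed the other way. Its brightest probe set had 139, 115 and 150 in WT and 55.8, 113 and 81.0 in BCS mice, with a log2 change of -0.73 ± 0.26 (SE, limma adjusted p = 0.170). BCS replicate 2 lay just below the lowest WT mouse, and the other 2 BCS mice were lower. Both dimmer probe sets of Usp53 passed. They went from 70.0, 82.6 and 86.2 to 34.4, 40.4 and 42.8, means of 79.6 and 39.2 (limma adjusted p = 0.0123), and from 58.0, 35.5 and 90.0 to 20.9, 18.3 and 18.6, a log2 change of -1.52 ± 0.29 (SE, limma adjusted p = 0.0183). On the dimmest, 2 BCS mice were under the median of the array. The call of the former was lost without WT replicate 3 (limma adjusted p = 0.0515) and that of the latter without WT replicate 1, BCS replicate 2 or BCS replicate 3 (adjusted p up to 0.0739 from limma).

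Usp7, which deubiquitinates both p53 and MDM2, had 7 probe sets, as many as Usp9x and more than any other member. On its brightest it had 6954, 6794 and 6743 in WT and 9021, 7994 and 7592 in BCS mice. The genotypes were apart by a small amount, with a log2 change of 0.26 ± 0.08 (SE, limma adjusted p = 0.0992). All 7 probe sets of Usp7 had a log2 change above 0, from 0.26 to 0.74, and 5 of them had every BCS mouse above every WT mouse, a separation in either direction that 23.9% of all probe sets showed. A dim probe set, at 90.0, 82.8 and 83.9 in WT and 138, 130 and 164 in BCS mice, passed with all arrays (log2 change 0.74, limma adjusted p = 0.0423) and in none of the fits with an array left out (adjusted p from 0.0781 to 0.131). Probe sets of a gene share the RNA of the same 6 mice and can overlap in sequence, so they are not independent. The 7 probe sets of Usp9x, an X-linked member with many substrates, had log2 changes of -0.19 to 0.18, and none passed.

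**Figure D3:**
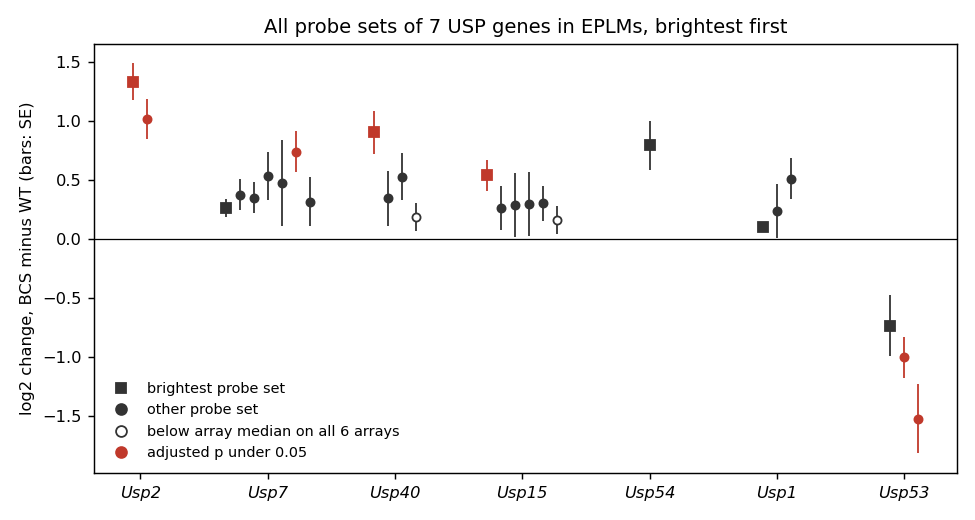
Log2 change between BCS and WT EPLMs (y axis, bars 1 standard error, n = 3 mice per genotype) on every probe set of 7 USP genes, with the brightest of each gene at the left as a square. The probe sets of each gene lie on the same side of 0, above it for all but Usp53, whose 3 probe sets range from -0.73 to -1.52.

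Such agreement was not general. Of the 50 genes, 38 had several probe sets, with 77 beyond the brightest. Of these 77, 22 lay below the array median on all 6 arrays, and 38 of the other 55 had the same sign of change as the brightest. Over all 127 probe sets of the family, 5 were higher and 2 lower at an adjusted p under 0.05 from limma, beside 5.49% of all probe sets (2.24% higher and 3.25% lower). The 7 were both of Usp2, 2 of Usp53 and 1 each of Usp7, Usp15 and Usp40. For Usp20, the brightest gave a log2 change of -0.56 ± 0.24 (SE), whereas 3 dimmer ones had 0.05, 0.04 and -0.05.

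The 4 members with the brightest probe sets were Usp1, Usp39, Usp7 and Usp34, which does not order their transcripts, since the brightness of a probe set also depends on its probes. Usp1, the enzyme that removes ubiquitin from FANCD2 and PCNA, had 21159, 21219 and 19882 in WT and 22106, 21941 and 22733 in BCS mice. The groups were apart by a narrow margin (log2 change 0.10, 95% interval 0.00 to 0.20, limma adjusted p = 0.269). Usp39, a component of the splicing machinery that lacks the catalytic residues, had 9987, 10063 and 10381 in WT and 9977, 10163 and 11404 in BCS mice. These values overlapped, with a log2 change of 0.05 (95% interval -0.10 to 0.20, limma adjusted p = 0.774). Usp34, which acts on axin in Wnt signaling, had 7098, 7299 and 7196 in WT and 6990, 6884 and 7391 in BCS mice, a log2 change of -0.02 (95% interval -0.17 to 0.12, limma adjusted p = 0.906). On these 3 brightest probe sets the intervals leave room for changes of at most 0.20 on the log2 scale in either direction. Dimmer probe sets gave larger values, 0.24 and 0.51 for Usp1, with BCS above WT in every mouse on the latter, and 0.60 ± 0.40 (SE) on 1 of those of Usp34.

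At the other end, 9 members lay below the array median of 20 on every array: Usp9y, Usp13, Usp17la, Usp26, Usp29, Usp43, Usp44, Usp50 and Usp46os2. Their log2 changes ranged from -0.17 to 0.07, and whether they changed cannot be read at this brightness. Usp26 and Usp29 are known for expression in testis and brain, and Usp9y lies on the Y chromosome.

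By known role, the 11 members tied to p53, MDM2, cyclins, Myc and growth signals held 2 of the 3 genes that passed, Usp2 and Usp15, and none of the other 9 passed, beside the 7.83% of all genes that did. Their median log2 change was 0.26, the lowest being -0.31 for Usp47. Usp10, a cytoplasmic protease of p53, had 3162, 2354 and 2389 in WT and 3067, 3839 and 3644 in BCS mice, so that 1 WT mouse overlapped (log2 change 0.42, limma adjusted p = 0.139). Usp36, a nucleolar enzyme that stabilizes Myc, had 211, 189 and 235 in WT and 259, 306 and 269 in BCS mice. These groups were apart (log2 change 0.39 ± 0.17 SE, limma adjusted p = 0.257). Usp24, which is known from human cells to act on p53, had 1567, 1658 and 1648 in WT and 1743, 1924 and 2299 in BCS mice, with a log2 change of 0.28 ± 0.13 (SE). Usp47, a protease of the repair polymerase beta, had 2600, 2719 and 2489 in WT and was lower in each BCS mouse, at 2325, 1947 and 2028, without passing (limma adjusted p = 0.148). Its other 2 probe sets also had log2 changes below 0. Usp4 and Usp42, both known as regulators of the p53 pathway, had log2 changes of -0.21 and 0.21 (SE 0.13 and 0.11) with overlapping groups. Usp28, another protease of Myc, had -0.03 (SE 0.17).

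None of the 8 measured members that act on histones or chromatin passed, where 7.83% of all genes did. Usp22, the protease of the SAGA coactivator complex, had 2450, 2489 and 2550 in WT and 3292, 2726 and 3478 in BCS mice, a log2 change of 0.33 ± 0.11 (SE, limma adjusted p = 0.138). Usp21, which acts on H2A, had 901, 642 and 823 in WT and 1206, 919 and 1073 in BCS mice, with a narrow margin between the highest WT and the lowest BCS mouse (log2 change 0.44, SE 0.17). Usp3 and Usp16, which act on the same histone, were also higher in each BCS than in any WT mouse, with log2 changes of 0.31 and 0.16 (SE 0.12 and 0.11) and no call. Usp11 was on the other side, at 526, 403 and 451 in WT and 369, 213 and 285 in BCS mice (log2 change -0.69 ± 0.22 SE, limma adjusted p = 0.124). These genes therefore pointed in both directions, with 5 changes above 0 and 3 below.

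Of the 3 partners of WDR48, Usp1 and Usp46 had log2 changes of 0.10 and 0.03 and Usp12 one of -0.29, and none passed. Usp14, which sits on the proteasome, had 1536, 1293 and 1575 in WT and 1679, 2142 and 1739 in BCS mice. Its log2 change was 0.33, and Usp5, which takes apart free ubiquitin chains, had 0.31 (SE 0.14 and 0.15), again without passing. Their relative Usp13 had 0.07 and lay below the array median. The 10 members placed at membranes and organelles included 8 with a log2 change below 0, from -0.56 for Usp20 to -0.02 for Usp34, and none passed. Among the 10 were Usp8, the protease of endosomal sorting, with -0.33 (SE 0.19), and Usp30, which works at mitochondria, with 0.38 (SE 0.22). Of the 11 members in no such group, only Usp40 passed, and the others had log2 changes between -0.21 and 0.18. Of these 11, 5 lay below the array median on every array. The background for each of these groups is the 7.83% of all genes that passed.

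Genes listed under the other families of deubiquitinases, together with Cyld, were set beside the USP genes. The lists include subunits such as Psmd7, Cops6 and Eif3h, and whether each gene encodes an active deubiquitinase was not checked. Of the 37 measured genes on these lists, 2 rose and 1 fell (adjusted p under 0.05 from limma), beside the 7.83% of all genes. Their median log2 change was 0.05. Both that rose belong to the OTU family. Otub2 went from 171, 381 and 87.4 in WT to 1004, 851 and 625 in BCS mice, which were all above the WT mice, though these varied widely (log2 change 2.18 ± 0.45 SE, limma adjusted p = 0.0256). Otulin, the protease of linear ubiquitin chains, went from 840, 862 and 882 to 1239, 1168 and 1388 (log2 change 0.55 ± 0.12 SE, limma adjusted p = 0.0359). Stambpl1, a JAMM metalloprotease of endosomes, fell from 2421, 2937 and 2473 to 2024, 1586 and 1656 (log2 change -0.57 ± 0.13 SE, limma adjusted p = 0.0379). These calls were lost in 4, 6 and 5 of the 6 fits that leave out an array. The Otub2 call held only without WT replicate 2 or WT replicate 3, that of Stambpl1 only without BCS replicate 1, and that of Otulin in none. All 4 measured genes of the UCH family had a log2 change above 0, among them Uchl5, a protease of the proteasome, with 0.33 and Bap1, a protease of H2A, with 0.25, and none passed. Of the other UCH genes, Uchl4 lay below the array median on all 6 arrays, and Uchl1 had 0.17 (SE 0.21). Of the JAMM family, Psmd14, the protease within the proteasome, had 0.20 (limma adjusted p = 0.0755).

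**Figure D4:**
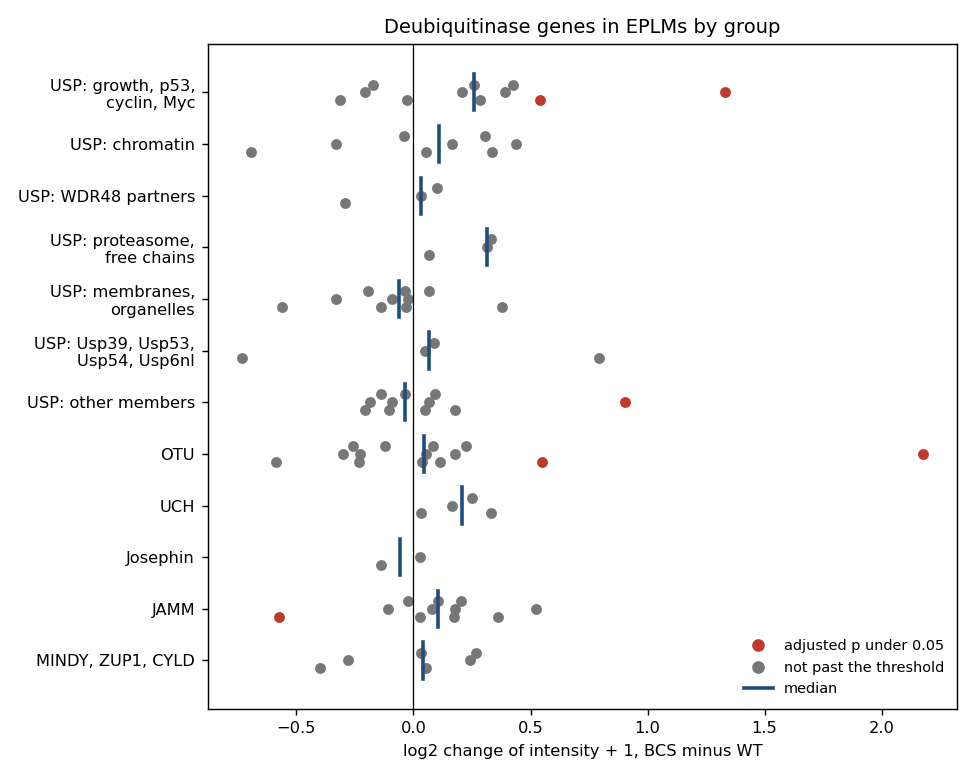
Log2 change between BCS and WT EPLMs (x axis) on the brightest probe set of each measured gene. Rows (y axis) are the USP role groups, with every member taken by name, and the lists of the other families. Points are genes, vertical bars group medians, and red points passed at an adjusted p under 0.05, namely 3 USP genes, Otub2, Otulin and Stambpl1, while group medians lie between -0.06 and 0.31.

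Of 12 genes listed with the partners of USP enzymes, such as the WDR48 scaffold and the SAGA module, only Atxn7l3b passed, beside 7.83% of all genes. Its log2 change was -0.47 ± 0.07 (SE, limma adjusted p = 0.00763), and it passed whichever of the 6 arrays was left out. Atxn7, Atxn7l3 and Eny2 of the SAGA module did not pass, with log2 changes of -0.25, -0.16 and 0.05. Wdr48 itself had a log2 change of 0.09 (SE 0.14). Of 14 genes whose proteins are known substrates or clock partners, 2 were higher and 1 lower, beside 3.15% and 4.68% of all genes. Ccnd1, the gene of cyclin D1, fell from a mean intensity of 1016 ± 232 in WT to 256 ± 77.8 in BCS mice (SD, n = 3, limma adjusted p = 0.00180), while the transcript of its protease Usp2 was higher. Id2 and Id3, whose proteins are substrates of Usp1 in human cells, were the higher ones, with log2 changes of 1.46 and 1.92. Among the genes of this list that did not pass was Myc, with a log2 change of 0.96 (SE 0.25, limma adjusted p = 0.0628). The clock gene Per1 had a log2 change of -0.24 (SE 0.23) and Arntl one of -0.69 (SE 0.29), neither of which passed. Of the 14 genes, 10 had a log2 change above 0 and 4 one below. These are RNA levels, and neither protein nor ubiquitin was measured.

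The sorted cells showed the transcripts of these positive markers, Kit, Cd93 and Ptprc, above the array median in every mouse. Ptprc, the gene of CD45 and B220, was lower in every BCS than in any WT mouse (log2 change -0.40 ± 0.07 SE, limma adjusted p = 0.0101), whereas Kit and Cd93 did not pass (log2 changes -0.01 and 0.29). Pou2af1, the mouse gene of OBF1, had a log2 change of 0.99 (limma adjusted p = 0.0436), although whether its probe set reads the human cDNA is not known. Its WT intensities were 6278, 7250 and 3400, and every BCS mouse was higher. By qPCR, the paper reports endogenous OBF1 RNA as not detectable in WT EPLMs and as robustly upregulated in BCS EPLMs. Markers of other cells were read beside Usp2, Usp15 and Usp40, with 3.15% of all genes higher and 4.68% lower as the background for each count. For plasmacytoid dendritic cells, 9 of the 12 markers read here fell and none rose, and the summed intensity went from between 89775 and 99723 in WT to between 42655 and 56519 in BCS mice. Of 10 markers of committed B cells, 7 rose and none fell, from sums of 49468 to 76343 to sums of 105344 to 114917. Of 12 NK cell markers 2 fell (sums of 8347 to 15344 and of 1514 to 4349), of 13 myeloid markers 1 fell (25331 to 88915 and 8839 to 60770), of 10 erythroid and megakaryocyte markers 1 fell (23140 to 23892 and 13183 to 15358), and of 9 T cell markers 2 rose and 1 fell (739 to 1565 and 1954 to 2666). Of the 12 NK, 13 myeloid and 10 erythroid and megakaryocyte markers, 11, 12 and 9 had a log2 change below 0. Their medians were -0.94, -0.25 and -0.90. A log2 change below 0 was found for 8792 of all 18193 genes. Of the 9 T cell markers, 7 had a log2 change below 0 and 2 one above, with a median of -0.62. The higher T cell sums therefore do not stand for most of that list. No marker was listed at 0. The part of these shifts in the changes of the USP genes was not tested, and in sorted bulk samples fewer cells of a type and less RNA per cell cannot be told apart.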

How the data were processed

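RNA of sorted EPLMs from 3 WT and 3 BCS mice was read on Affymetrix GeneChips, with a separate animal for each array. The authors deposited intensities on a linear scale, made with GCRMA (version not given in the sources used here). All 6 EPLM arrays have a median of 20 and nearly equal quantiles. The labels state a labeling protocol of 1 cycle and the methods a kit of 2 cycles, and no genome build is stated.

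In R 4.3.3, limma 3.58.1 (lmFit and eBayes, trend by intensity) compared BCS with WT on log2 values after adding 1 to the intensity, with Benjamini-Hochberg adjustment over all 45037 probe sets. A gene passed at an adjusted p under 0.05. A single symbol is annotated for 34945 probe sets. The fit was tested on simulated data. All levels and changes refer to 6 arrays, whose number limits the precision.

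Members and gene lists were chosen with earlier results of these data known. Values per mouse are given for Usp2, the genes that passed, the 4 brightest members and, chosen after their values were seen, a few others. Of each other list up to 4 genes that passed are named, and some that did not pass are named as well. Genes on the lists without a probe set of 1 symbol were not analysed here. Promoter windows are from RefSeq (GRCm38.p6), matched by gene ID. The alternatives were the methods' t-test, other variance models, offsets, normalizations, filters, fold rules and choices of probe set, array weights, the replicate number as a block, and each array left out.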

Additional observations from a re-analysis of the deposited data

How the results depend on the processing

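Of the 3 USP genes that passed, 3 remained with robust variances, array weights, an offset of 16, a floor at 1, quantile normalization or centring, Usp54 joined them without an intensity trend or without dim probe sets, and Usp2 passed in every fit but the methods' t-test. That t-test called 0 of the USP genes and 0 of the other deubiquitinases after adjustment (267 probe sets in all), and at the methods' own threshold, unadjusted, it called 1 member, Usp2, and 864 probe sets. With medians at least 2-fold apart as well, 1 USP gene, 1 other deubiquitinase and 1156 of the 2472 probe sets were left. With the replicate number as a block, 1 USP gene, Usp2, and 1 other deubiquitinase passed. Whether same-numbered mice were paired is not known. Deviations of same-numbered WT and BCS mice from their genotype means correlated with r = 0.01, 0.10 and 0.10 over 14957 probe sets. Those of mice with different numbers correlated with r = -0.22 to 0.10, and not every mouse correlated best with its own number. With 3 mice per genotype these values cannot decide the question. Of the other deubiquitinases, 3 in the fit as reported, 1 passed without an intensity trend and 5 without dim probe sets. Leaving out each array in turn gave 1 to 2 USP genes, all higher, 0 to 2 other deubiquitinases and 1401 to 2241 probe sets. With the mean of all probe sets of a gene, or the probe set of largest spread, 1 USP gene was lower, Usp53 (log2 change -1.09 and -1.52), Usp15 did not pass, and with the mean Usp54 did. The cause of these losses was not tested, and the fits with an array left out also had fewer arrays. Of the named USP genes, those that passed kept their direction in all of these fits, while Usp34 turned from -0.02 to 0.18 with the mean of its probe sets and to 0.60 with that of largest spread, and Usp39, at 0.05, lay between -0.010 (without BCS replicate 3) and 0.086 (without BCS replicate 1) when arrays were left out, none of which passed. The median log2 change of the family lay between 0.02 and 0.09. The 3 arrays per genotype and, for 9 members, a signal below the array median limit what can be read.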
